A study of Mus musculus with 12 samples.

Results

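The 10 genes described here take part in, or are tied to, the steps by which a hepatocyte makes triglyceride and loads it onto very low density lipoprotein (VLDL). They are Gpam, Agpat2, Lpin1, Lpin2, Dgat1, Dgat2, Pnpla3, Mttp, Tm6sf2 and Apob. They were taken by symbol from a list that was drawn up with earlier results of these data known. All 10 were among the 24062 genes listed, and 9 of them were among the 12015 genes with enough counts to be tested. Pnpla3 fell below the filter. The study asked how LRH-1, the nuclear receptor encoded by Nr5a2, controls lipid metabolism in adult mouse liver. Liver RNA of male mice aged 14 weeks, of a mixed 129SvEV-C57BL/6 background, was sequenced as 12 libraries. All animals carried floxed Nr5a2 alleles. High-fat diet (HFD) knockouts (2 libraries) and HFD controls (4) were fed the diet D12492 for 6 weeks, and standard diet (SD) knockouts (3) and SD controls (3) were fed the standard diet. Knockouts received Cre through AAV8, an adeno-associated virus vector that infects hepatocytes well. Controls were floxed animals without Cre, which were given AAV8-eGFP according to the series text. The sources used here do not give the promoter that drove Cre.

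Triglyceride is built on glycerol-3-phosphate by successive acyl transfers. Gpam adds the first acyl chain, Agpat2 adds the next and so makes phosphatidic acid, the lipins Lpin1 and Lpin2 remove its phosphate to give diacylglycerol, and Dgat1 and Dgat2 add the last chain. Pnpla3 is a lipid droplet protein. In the endoplasmic reticulum Mttp, the microsomal triglyceride transfer protein, loads lipid onto apolipoprotein B, the product of Apob and the structural protein of VLDL, and Tm6sf2 is a membrane protein needed for full lipidation of the particle.

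HFD libraries held 7463792 to 10875478 counts and SD libraries held 2371167 to 3404570. Rn45s, a ribosomal RNA gene, held 0.985% to 1.32% of counts in HFD libraries and 0.291% to 0.460% in SD libraries. Ribosomal protein genes held 0.683% to 0.807% in HFD libraries and 0.137% to 0.183% in SD libraries. Malat1 held 1.13% to 1.79% and 0.461% to 1.07%. Every HFD library thus stood apart from every SD library, and diet cannot be told apart from these differences. HFD control 1 lay at -3.27 on the second principal component, between the HFD knockouts (-24.0 and -20.1) and the other HFD controls (11.4 to 18.3). Counts over the whole Nr5a2 gene were not lower in libraries labelled knockout, at 69.1 to 84.5 normalized CPM (a count as a rate of the TMM-normalized library size, called CPM from here on) in HFD knockouts against 64.3 to 77.0 in HFD controls, and 94.7 to 100.1 in SD knockouts against 74.8 to 85.8 in SD controls. Which exons were deleted is not given, and the whole-gene count therefore does not check the labels. The hepatocyte markers Alb, Ttr, Apoa2, Cps1, Fga and Cyp2e1 were detected in every group, with a summed level of 106198 to 174251 CPM, and a median log2 fold change of -0.20 on HFD, -0.32 on SD and -0.27 averaged over diets. By edgeR Ttr rose in HFD knockouts (0.64, adjusted p = 0.0116) and Apoa2 fell in SD knockouts (-0.90, adjusted p = 0.00223) and averaged over diets (-0.55, adjusted p = 0.00398), where 5 of the 6 had an unadjusted p under 0.05 and DESeq2 called Apoa2, Fga and Ttr. The part of this in the members' levels was not tested.

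Apob dominated the set. It took 1.90% to 2.51% of all counts in HFD libraries and 3.38% to 4.15% in SD libraries, while the other 9 genes together took 0.144% to 0.216% in HFD libraries and 0.158% to 0.307% in SD libraries. Per kilobase of exon annotated in GENCODE on GRCm38, which is not the annotation the counts were made with, Apob came first and Dgat2 came next in all 4 groups. Dgat2 averaged 123 ± 4.80 CPM per kilobase in HFD knockouts (SD, n = 2), 131 ± 7.95 in HFD controls (n = 4), 102 ± 8.02 in SD knockouts (n = 3) and 98.9 ± 8.39 in SD controls (n = 3). Dgat1, the other enzyme of the last acyl transfer, lay far lower, between 3.36 and 4.44 CPM per kilobase on average. Pnpla3 was last in all 4 groups, at 0.150 to 0.648. The middle of the order depended on the group. Lpin1 ranked 3 in SD knockouts (95.2 ± 25.9), and its SD reached the means of Dgat2 above it and of Lpin2 below it (72.8 ± 15.9). It ranked 5 in SD controls (34.6 ± 21.7), where its SD reached the mean of Mttp above it (43.5 ± 1.49). Agpat2 ranked 7 in HFD knockouts (10.6 ± 2.76) and 5 in HFD controls (29.8 ± 3.42), and 7 in SD knockouts (7.00 ± 1.28) and 6 in SD controls (19.5 ± 3.39). In HFD controls its SD reached the mean of Mttp above it (31.9 ± 1.22). The SD of the gene above it reached the mean of Agpat2 in HFD knockouts (Gpam, 13.7 ± 3.81) and in SD controls (Lpin1).

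**Figure D1:**
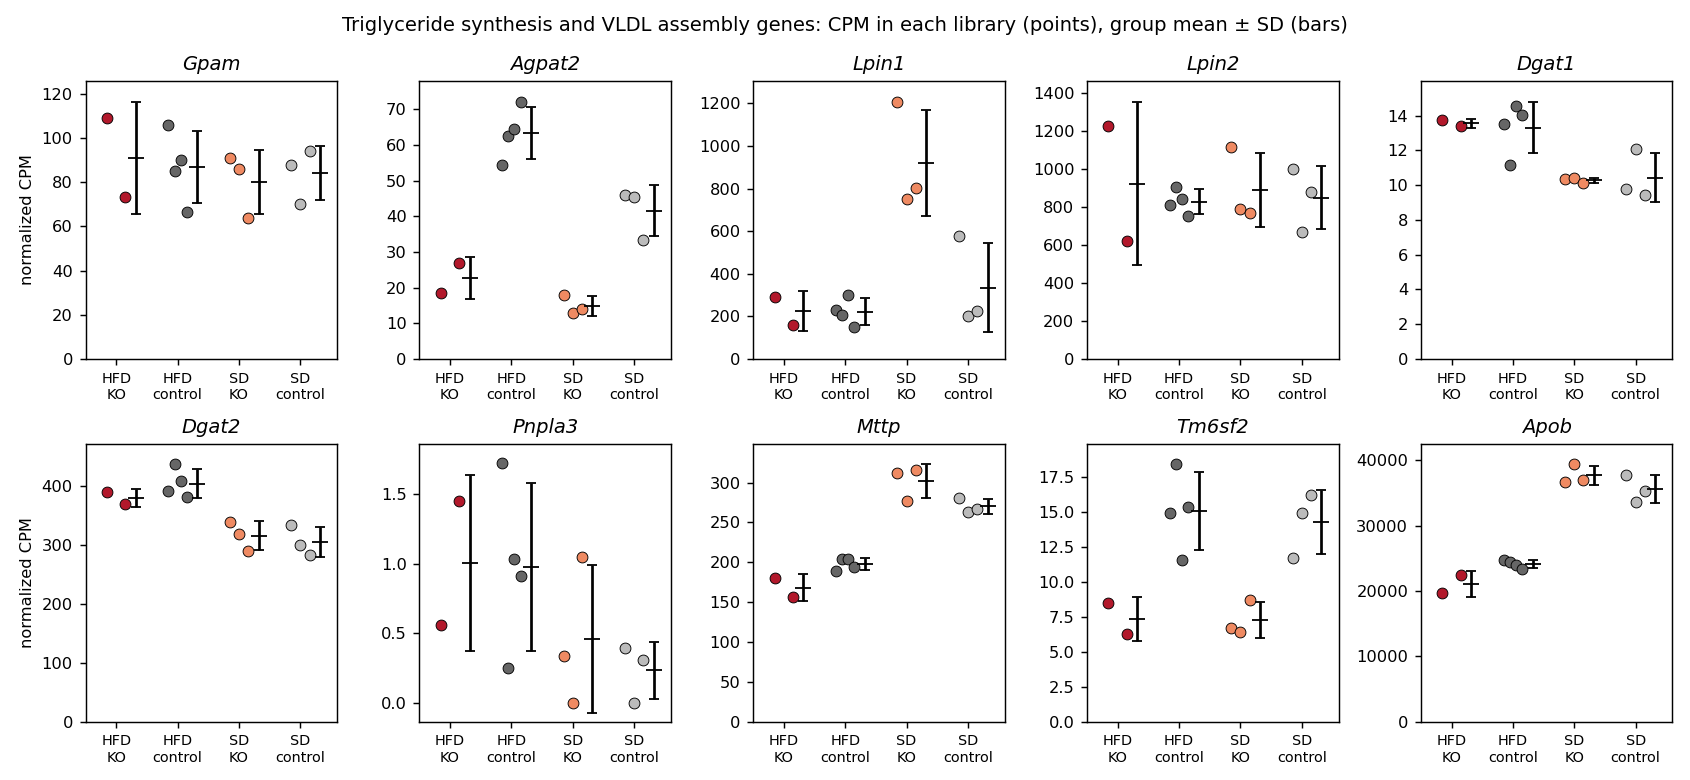
Normalized CPM of the 10 genes in each of the 12 libraries (points), with the group mean and SD beside them (horizontal mark and bar), each gene on its own linear axis. Agpat2 and Tm6sf2 lay lower in every knockout library than in every control library of the same diet, Lpin1 lay higher in the 3 SD knockouts than in the 3 SD controls, and Apob and Mttp lay lower in every HFD library than in every SD library.

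For 7 of the 10 genes, RefSeq promoter windows (GRCm38.p6, 250 bases before the gene start) were at hand, 10 windows in all. The windows of Agpat2 and Lpin1, the genes with an entry that passed a knockout comparison, are shown so that the letters bound by nuclear receptors can be looked for. The searched letters were CAAGGNCA, a core form of the extended site that LRH-1 binds as a monomer, and AGGTCA, the shared nuclear receptor core, on both strands. A CAAGGNCA whose N is T contains AGGTCA. Capitals mark AGGTCA.
Agpat2, chr2:26604418-26604667, minus strand: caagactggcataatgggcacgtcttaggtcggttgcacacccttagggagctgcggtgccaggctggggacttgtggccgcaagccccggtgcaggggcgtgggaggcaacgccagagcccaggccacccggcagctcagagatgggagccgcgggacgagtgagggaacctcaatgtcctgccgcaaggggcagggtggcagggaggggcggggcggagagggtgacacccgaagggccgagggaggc
Lpin1, chr12:16610967-16611216, minus strand: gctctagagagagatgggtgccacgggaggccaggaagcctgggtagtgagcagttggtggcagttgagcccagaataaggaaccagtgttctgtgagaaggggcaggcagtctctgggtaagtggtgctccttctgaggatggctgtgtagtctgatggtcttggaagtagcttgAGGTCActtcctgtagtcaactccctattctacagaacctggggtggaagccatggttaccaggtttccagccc
CAAGGNCA was in 0 of the 10 windows and in 5.53% of the 32851 mouse promoter windows of the same length. AGGTCA was in 2 of the 10, against 14.0% of all windows. These were the Lpin1 window, 74 bases before the start, and a window of Gpam, 196 bases before the start. Tm6sf2, Dgat1 and Dgat2 had no entry. The matches describe these windows only.

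In the knockout comparisons Agpat2 and Tm6sf2 fell on both diets, Lpin1 rose on SD, and the other 6 tested genes did not pass. Genes were tested with edgeR's quasi-likelihood test and Benjamini-Hochberg adjustment over all 12015 genes, and passed at an adjusted p under 0.05. On HFD 0 of the 9 tested members rose and 2 fell, where 2.7% of all genes passed (1.04% higher and 1.66% lower). On SD 1 rose and 2 fell, where 4.38% of all genes passed (1.44% higher and 2.94% lower). Averaged over the diets 0 rose and 2 fell, where 8.36% of all genes passed (3% higher and 5.36% lower). The median log2 fold change of the 9 was -0.09 on HFD and 0.05 on SD, against -0.0074 and 0 over all genes tested. CPM did not overlap between knockouts and controls for 4 of the 9 on HFD, where 22.2% of all genes did not overlap, and for 3 of the 9 on SD, where the share was 22.6%. In bulk RNA, fewer cells of a type and less RNA per cell cannot be told apart.

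Agpat2, an acyltransferase that makes phosphatidic acid, had 18.5 and 26.8 CPM in the HFD knockouts, against 54.4, 62.4, 64.6 and 72.1 CPM in the HFD controls. It had 18.0, 12.8 and 13.9 CPM in the SD knockouts, against 46.1, 45.4 and 33.3 CPM in the SD controls. Every knockout library was below every control library, across diets too. The level was 2.78-fold lower in HFD knockouts (log2 fold change -1.48, SE 0.18, edgeR adjusted p = 3.90e-04) and 2.76-fold lower in SD knockouts (log2 fold change -1.46, SE 0.20, edgeR adjusted p = 7.03e-04). The difference between these effects was -0.01 on the log2 scale, with a 95% interval of -0.60 to 0.57 (edgeR adjusted p = 1.00). Averaged over diets the log2 fold change was -1.47 (95% interval -1.76 to -1.18, edgeR adjusted p = 6.85e-06). Agpat2 passed both knockout comparisons under every alternative setting and with each library left out. In the SD libraries these levels rested on 32 to 118 counts each. In GENCODE its exons share 64 bases with Egfl7 on the opposite strand, and since the strand setting of the counting is not given, reads there cannot be told apart.

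Gpam, which adds the first acyl chain, showed no change past the test on either diet. It had 109 and 73.2 CPM in HFD knockouts, against 66.6 to 106 CPM (median 87.7) in HFD controls, and 63.7 to 91.0 CPM in SD knockouts against 70.3 to 94.0 CPM in SD controls. The groups overlapped on both diets. Its log2 fold change was 0.06 on HFD (95% interval -0.34 to 0.47) and -0.07 on SD (-0.49 to 0.35). Lpin2, the phosphatidate phosphatase isoform with the higher mean CPM per kilobase of the lipin pair except in SD knockouts, also overlapped. It had 1227 and 618 CPM in HFD knockouts against 753 to 907 CPM in HFD controls, and 768 to 1115 CPM in SD knockouts against 669 to 1001 CPM in SD controls. The HFD knockouts thus enclosed the whole range of the HFD controls. Its log2 fold change was 0.16 on HFD (95% interval -0.32 to 0.64) and 0.07 on SD (-0.39 to 0.53).

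Lpin1 rose in SD knockouts. This phosphatidate phosphatase, also known as a coactivator of fatty acid oxidation genes in liver and as inducible by fasting and glucocorticoids, had 1209, 752 and 801 CPM in the SD knockouts, against 576, 201 and 228 CPM in the SD controls. The groups did not overlap, and SD control 1 lay far above the other SD controls. The level was 2.75-fold higher (log2 fold change 1.46, SE 0.36, edgeR adjusted p = 0.0295). In the HFD knockouts it had 291 and 159 CPM, against 232, 206, 302 and 149 CPM in the HFD controls, which overlapped. The HFD log2 fold change was 0.02 (95% interval -0.77 to 0.81, edgeR adjusted p = 0.994). The difference of the effects, HFD minus SD, was -1.44 (SE 0.52, unadjusted p = 0.0141) and did not pass edgeR's adjustment (adjusted p = 0.561). The SD call was lost when any SD library other than control 1 was left out (adjusted p 0.0538 to 0.155), and without SD control 1 the log2 fold change was 2.11 (adjusted p = 0.00203).

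Lpin1 varied more between replicates than the other tested members, with a biological coefficient of variation of 0.304 against 0.0987 to 0.196. Its nearest pattern among tested genes was that of Fkbp5, a glucocorticoid-induced gene, with a Pearson correlation of 0.961 over the 12 libraries after subtracting the mean of each diet. Zfp157 (0.950) and Gldc (0.936) came next. These values describe libraries that share the depth and the knockout contrast. Fkbp5 had 146, 78.5 and 95.4 CPM in SD knockouts, against 64.4, 29.3 and 26.9 CPM in SD controls (log2 fold change 1.42, SE 0.33, edgeR adjusted p = 0.0225), and its highest SD control was control 1, as for Lpin1. On HFD, Fkbp5 overlapped between knockouts and controls (-0.06, 95% interval -0.75 to 0.63, edgeR adjusted p = 0.964). In a list of 12 fasting and glucocorticoid response genes, 11 were tested. On HFD 0 rose and 1 fell, Pck1, the gluconeogenic enzyme (log2 fold change -1.02, SE 0.21, edgeR adjusted p = 0.0139). On SD 1 rose, Fkbp5, and 1 fell, Igfbp1, which encodes an IGF binding protein (-2.04, SE 0.45, edgeR adjusted p = 0.0171). The median of the list was -0.33 on HFD and -0.35 on SD. On SD, Lpin1 and Fkbp5 moved opposite to the median of the list. The list mixes fasting and glucocorticoid genes, so its median describes neither kind alone. Averaged over diets 0 of the 11 rose and 2 fell by edgeR, with a median of -0.31. An unadjusted p under 0.05 in edgeR was found for 2 of the 11 on HFD, 5 on SD and 8 averaged. Over all 12015 genes tested, 1687 on HFD, 2120 on SD and 2584 averaged had such a p. Whether glucocorticoids had a part was not tested. Of 8 clock genes 7 were tested and 0 passed on either diet by edgeR or DESeq2 (1 on each diet had an unadjusted p under 0.05). Averaged over diets 0 passed by edgeR, and DESeq2 called Nr1d1 (edgeR log2 fold change -0.49, adjusted p = 0.0721). Clock gave -0.20 on HFD and 0.28 on SD, and Per3 gave -0.02 and -0.14.

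**Figure D2:**
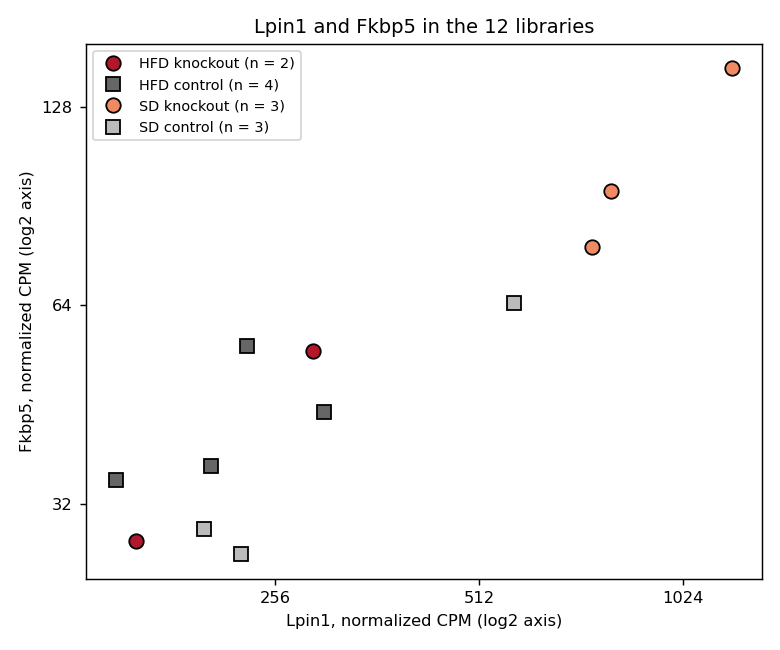
Normalized CPM of Lpin1 (x axis, log2) and Fkbp5 (y axis, log2) in each library, with knockouts as circles and controls as squares. The 3 SD knockouts lie highest on both axes, SD control 1 follows at 576 CPM of Lpin1 and 64.4 CPM of Fkbp5, and the remaining 8 libraries lie below both values.

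The enzymes of the last acyl transfer did not pass on either diet. Dgat1 had 13.8 and 13.4 CPM in HFD knockouts against 11.2 to 14.5 CPM in HFD controls, and 10.1 to 10.4 CPM in SD knockouts against 9.46 to 12.1 CPM in SD controls. Its log2 fold change was 0.03 on HFD (95% interval -0.30 to 0.35) and -0.01 on SD (-0.42 to 0.40). Dgat2 had 390 and 369 CPM in HFD knockouts against 380 to 436 CPM in HFD controls, and 289 to 339 CPM in SD knockouts against 282 to 333 CPM in SD controls. Its log2 fold change was -0.09 on HFD (95% interval -0.32 to 0.14) and 0.05 on SD (-0.17 to 0.27). For both genes knockouts and controls overlapped on both diets. Pnpla3 was close to the detection limit. It had 4 and 13 counts in HFD knockouts, against 19, 2, 9 and 7 in HFD controls, and 1, 0 and 3 counts in SD knockouts against 1, 0 and 1 in SD controls. With no filter on low counts, its adjusted p in edgeR was 1.00 on HFD and 0.877 on SD. A change could not be judged at this depth. In GENCODE the exons of Pnpla3 also share 105 bases with Gm49513 on the same strand.

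Of the VLDL assembly genes, Tm6sf2 fell on both diets. It had 8.48 and 6.25 CPM in the HFD knockouts, against 14.9, 18.4, 11.6 and 15.3 CPM in the HFD controls. It had 6.67, 6.40 and 8.71 CPM in the SD knockouts, against 11.7, 14.9 and 16.2 CPM in the SD controls. Every knockout library was below every control library, across diets too. The level was 2.05-fold lower in HFD knockouts (log2 fold change -1.04, SE 0.21, edgeR adjusted p = 0.0153) and 1.97-fold lower in SD knockouts (log2 fold change -0.98, SE 0.25, edgeR adjusted p = 0.0366). The effects differed by -0.06 (95% interval -0.76 to 0.64, edgeR adjusted p = 0.995), and averaged over diets the log2 fold change was -1.01 (SE 0.16, edgeR adjusted p = 0.00116). These levels rested on 56 to 164 counts in each HFD library and on 16 to 53 in each SD library. The averaged fall passed under every alternative (adjusted p up to 0.00776) and with each library left out (up to 0.00953). The HFD call was lost without either HFD knockout (adjusted p 0.0599 and 0.165), with only the groups compared in the fit (0.0716), with thinning to equal depth (0.120) and with the replicate block (0.0506), and the SD call was lost without any SD library except control 1 (0.0666 to 0.161), with thinning (0.0709) and with the block (0.0628).

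Mttp and Apob did not pass in either knockout comparison. Mttp had 180 and 156 CPM in HFD knockouts, against 189, 204, 204 and 195 CPM in HFD controls, and 312, 277 and 315 CPM in SD knockouts against 280, 262 and 267 CPM in SD controls. On HFD the groups did not overlap and on SD they did. The log2 fold change was -0.23 on HFD (95% interval -0.45 to -0.02, unadjusted p = 0.0372, edgeR adjusted p = 0.306) and 0.16 on SD (95% interval -0.05 to 0.37, edgeR adjusted p = 0.439). The difference of the effects, -0.39, had an unadjusted p of 0.0138 and an adjusted p of 0.561 in edgeR. Apob had 19680.4 and 22497.2 CPM in HFD knockouts, against 24783.5, 24388.5, 23908.5 and 23404.7 CPM in HFD controls, which did not overlap. It had 36599.8, 39366.1 and 37030.8 CPM in SD knockouts, against 37776.8, 33636.1 and 35353.5 CPM in SD controls, which overlapped. Its log2 fold change was -0.19 on HFD (95% interval -0.46 to 0.07, edgeR adjusted p = 0.544) and 0.08 on SD (-0.16 to 0.33, edgeR adjusted p = 0.793). Exons of Mttp share 457 bases with Trmt10a and 132 with Gm43691 on the opposite strand, so the Mttp values carry the same uncertainty as those of Agpat2.

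Over the 9 tested members, 0 passed the test of a difference of the knockout effect between the diets. By edgeR 0 of all 12015 genes passed it (0% called), while 911 genes, Lpin1 and Mttp among them, had an unadjusted p under 0.05. DESeq2 called 33 genes, with 0 members among them.

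**Figure D3:**
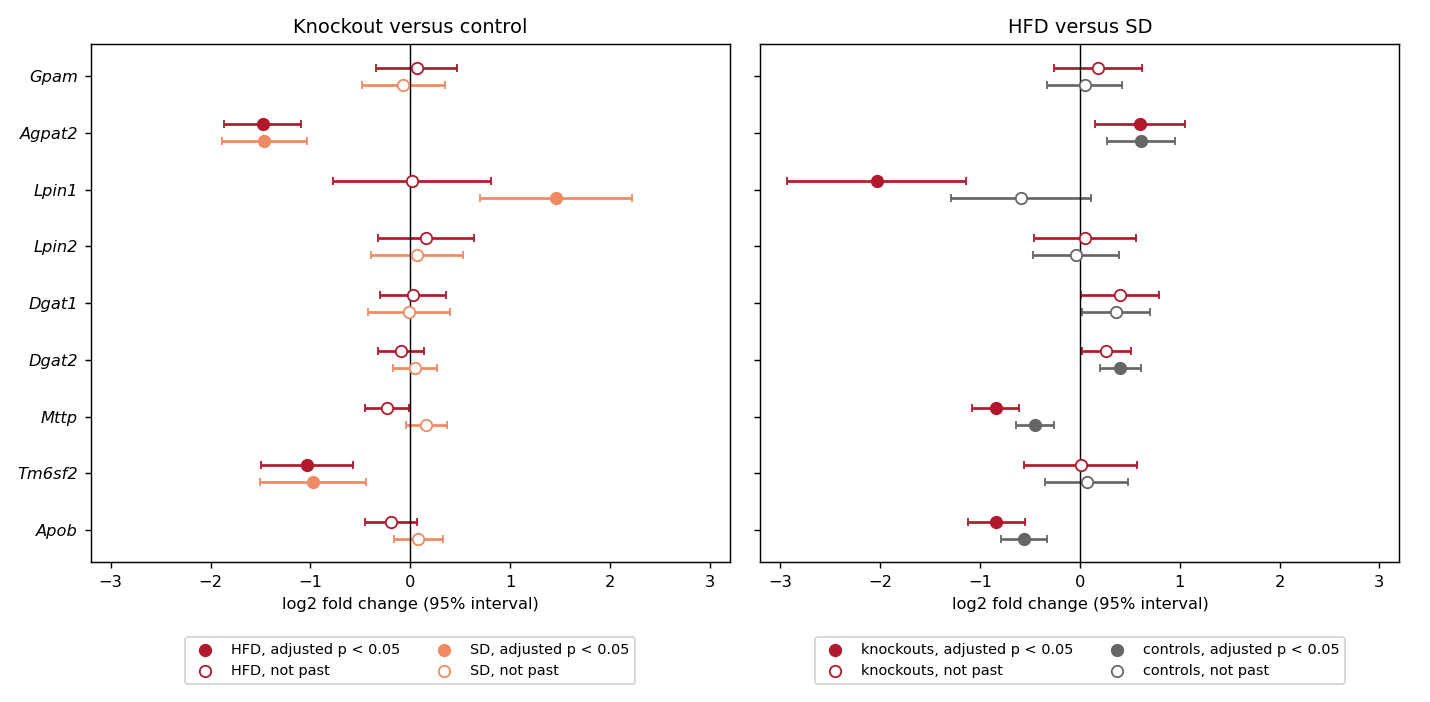
Log2 fold changes of the 9 tested genes with 95% intervals, for knockout against control (left) and HFD against SD (right). Filled points passed at an adjusted p under 0.05. Agpat2 and Tm6sf2 lie left of zero on both diets in the left panel, and Mttp and Apob lie left of zero in knockouts and in controls in the right panel.

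Between the diets, Apob and Mttp were lower in HFD libraries, and Agpat2 was higher, within each genotype. Depth and library composition differed with diet as given above, and their part cannot be told apart. In HFD controls against SD controls 2 of the 9 members were higher and 2 lower, where 30.1% of all genes passed (16.5% higher and 13.6% lower). In HFD knockouts against SD knockouts 1 was higher and 3 lower, where 26.6% of all genes passed (14.9% higher and 11.7% lower). The member medians were 0.05 in both comparisons, against 0.02 in controls and 0.03 in knockouts over all genes. CPM did not overlap between the diets for 6 of the 9 in knockouts, where 52.7% of all genes did not overlap, and for 4 of the 9 in controls, where 37.2% did not. These diet comparisons have no library in common, and the spread was estimated over all 12 libraries.

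Apob was 1.79-fold lower in HFD knockouts than in SD knockouts (log2 fold change -0.84, SE 0.13, edgeR adjusted p = 2.43e-04) and 1.48-fold lower in HFD controls than in SD controls (-0.56, SE 0.11, edgeR adjusted p = 9.91e-04). Mttp was 1.79-fold lower in HFD knockouts (-0.84, SE 0.11, edgeR adjusted p = 3.95e-05) and 1.37-fold lower in HFD controls (-0.45, SE 0.09, edgeR adjusted p = 0.00140). Lpin1 was 4.10-fold lower in HFD knockouts than in SD knockouts (-2.03, SE 0.42, edgeR adjusted p = 0.00218), and in controls the log2 fold change was -0.59 (95% interval -1.29 to 0.11, edgeR adjusted p = 0.194). Agpat2 was 1.53-fold higher in HFD controls (0.61, SE 0.16, edgeR adjusted p = 0.00823) and 1.52-fold higher in HFD knockouts (0.60, SE 0.21, edgeR adjusted p = 0.0489). The control call was lost without SD control 3 (adjusted p = 0.0580), and the knockout call was lost under 5 of 6 alternatives (adjusted p up to 0.0891) and without SD knockout 2, SD knockout 3, HFD control 2, HFD control 3 or HFD knockout 2 (adjusted p 0.0545 to 0.400). Dgat2 was 1.33-fold higher in HFD controls (0.41, SE 0.10, edgeR adjusted p = 0.00485), and in knockouts the log2 fold change was 0.27 (95% interval 0.02 to 0.51, edgeR adjusted p = 0.0998). Dgat1 gave 0.40 in knockouts and 0.36 in controls (edgeR adjusted p = 0.124 and 0.106). Gpam, Lpin2 and Tm6sf2 had log2 fold changes between -0.04 and 0.18, none of which passed.

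Among the members, Agpat2 and Tm6sf2 were most alike, with a Pearson correlation of 0.83 over the 12 libraries after subtracting diet means, followed by Gpam and Lpin2 (0.71). Both members of the pair Agpat2 and Tm6sf2 fell with knockout, so these values restate the contrast in part. The patterns nearest to that of Agpat2 were those of Ceacam1 (0.976), Lpgat1 (0.974) and Scarb1 (0.974). Scarb1 encodes the HDL receptor SR-BI, and Lpgat1 encodes an acyltransferase for lysophospholipids. The log2 fold change of Ceacam1 was -0.52 on HFD and -0.39 on SD. Lpgat1 gave -0.93 and -0.84, and Scarb1 gave -0.82 and -0.89. These genes were picked by a correlation that kept the knockout contrast. Their falls therefore follow in part from the choice and are no separate support. Nearest to Tm6sf2 were Cyb5b (0.959), Shmt1 (0.947) and Ggt6 (0.946), nearest to Mttp was Crcp (0.962), and nearest to Apob was Abhd13 (0.950).

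The neighbouring steps of the pathway were described from lists. Over all genes tested, 1.04% rose and 1.66% fell on HFD by edgeR, and 1.44% rose and 2.94% fell on SD. Averaged over diets, 3% rose and 5.36% fell. Of these 12015 genes, 1687 on HFD, 2120 on SD and 2584 averaged had an unadjusted p under 0.05 in edgeR. Of 9 genes of glycerol and acyl-CoA supply, 0 rose and 1 fell on each diet, with a median log2 fold change of -0.24 on HFD and -0.12 on SD. On HFD this was Gpd1l, related to glycerol-3-phosphate dehydrogenase (-0.70, SE 0.17, edgeR adjusted p = 0.0350). On SD it was Aqp9, the glycerol channel of hepatocytes, with 347 ± 22.1 CPM in SD knockouts and 497 ± 17.6 CPM in SD controls (SD, n = 3 each, log2 fold change -0.52, edgeR adjusted p = 0.0210). Averaged over diets both fell, and so did the acyl-CoA synthetase gene Acsl3 (-0.77, SE 0.18, edgeR adjusted p = 0.0142). On SD, DESeq2 called Acsl3 besides Aqp9. An unadjusted p under 0.05 in edgeR was found for 3 of the 9 on HFD and 5 on SD. Acsl1 and Acsl5, acyl-CoA synthetase genes with the highest CPM of the list, did not pass (Acsl1 -0.13 on HFD and 0.11 on SD, Acsl5 0.04 and -0.35).

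Of 12 other acyltransferase, lipin and related genes 11 were tested, with a median of -0.03 on HFD and -0.11 on SD. On HFD 1 rose and 0 fell. Mogat1, a monoacylglycerol acyltransferase that gives diacylglycerol by a route without phosphatidic acid, had 38 and 21 counts in HFD knockouts, against 15, 6, 3 and 9 in HFD controls (log2 fold change 2.01, SE 0.50, edgeR adjusted p = 0.0447), and DESeq2 did not call it. On SD 0 rose and 1 fell, Agpat6, listed here under an older symbol of the glycerol-3-phosphate acyltransferase Gpat4. Agpat6 had 87.3, 69.2 and 54.7 CPM in SD knockouts, against 116, 115 and 99.2 CPM in SD controls (-0.64, SE 0.17, edgeR adjusted p = 0.0476). In HFD knockouts it had 81.1 and 78.7 CPM, against 90.0 to 135 CPM in HFD controls (-0.51, edgeR adjusted p = 0.156), and averaged over diets it fell (-0.58, SE 0.12, edgeR adjusted p = 0.00756). Lclat1, the acyltransferase of this list with the highest CPM, did not pass (0.30 on HFD and -0.07 on SD). No Agpat gene of this list other than Agpat6 passed a knockout comparison by edgeR or DESeq2. Agpat1 and Agpat4 had only 5 to 11 counts in each SD library, where a missing call does not show an unchanged level. Whether Agpat2 differed in its fall from other genes of its family was not tested. An unadjusted p under 0.05 in edgeR was found for 4 of the 11 on HFD and 3 on SD.

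Of 19 VLDL assembly and export partners, 2 rose and 0 fell on HFD and 0 passed on SD by edgeR or DESeq2, with medians of 0.05 and 0.10. In edgeR, 4 of the 19 had an unadjusted p under 0.05 on HFD and 0 on SD. Ces1g, a carboxylesterase, had 362 and 403 CPM in HFD knockouts, against 113 to 273 CPM in HFD controls (log2 fold change 1.00, SE 0.24, edgeR adjusted p = 0.0381). Soat2, which esterifies cholesterol, had 36.8 and 38.2 CPM in HFD knockouts, against 15.8 to 26.1 CPM in HFD controls (0.75, SE 0.18, edgeR adjusted p = 0.0341). Neither passed on SD (0.21 and 0.40), and both passed averaged over diets. P4hb, the partner subunit of Mttp in its heterodimer, and Ctage5, an endoplasmic reticulum exit factor, had the highest CPM of the list and did not pass (P4hb -0.11 on HFD and 0.23 on SD, Ctage5 0.02 and 0.00).

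Of 12 transcription regulators 0 rose and 1 fell on HFD, and 0 rose and 4 fell on SD, with medians of -0.27 and -0.30. Of all genes tested, 1.66% fell on HFD and 2.94% fell on SD. DESeq2 called 2 regulators on HFD, Nr1h4 being the added one, and 5 on SD, Mlxipl being the added one. In edgeR, 4 of the 12 had an unadjusted p under 0.05 on HFD and 6 on SD. Nr0b2, which encodes the nuclear receptor SHP and is a known LRH-1 target, had 0 and 3 counts in HFD knockouts, against 69, 107, 108 and 58 in HFD controls, and 0, 0 and 0 counts in SD knockouts, against 27, 38 and 42 in SD controls (edgeR adjusted p = 3.8e-04 on each diet). Srebf1, the lipogenic regulator SREBP-1, had 50.3, 65.2 and 63.4 CPM in SD knockouts, against 78.1, 102 and 131 CPM in SD controls (-0.81, SE 0.17, edgeR adjusted p = 0.0138), and on HFD the log2 fold change was -0.14 (edgeR adjusted p = 0.795). Ppara (-0.53) and Nr1h4, the bile acid receptor FXR (-0.46), also fell on SD, with edgeR adjusted p = 0.0257 and 0.0483, and gave -0.33 and -0.51 on HFD (0.259 and 0.0515). Mlxipl, the carbohydrate-responsive regulator ChREBP, passed averaged over diets (-0.35, SE 0.09, edgeR adjusted p = 0.0191) and by edgeR on neither diet alone (-0.28 on HFD, -0.42 on SD). Hnf4a did not pass (0.07 on HFD and -0.06 on SD). The difference between diets passed by edgeR for 0 genes of these 4 lists, with unadjusted p under 0.05 for 1 supply gene, 2 acyltransferase genes, 2 VLDL partners and 1 regulator, and DESeq2 called 1, Gpd1.

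**Figure D4:**
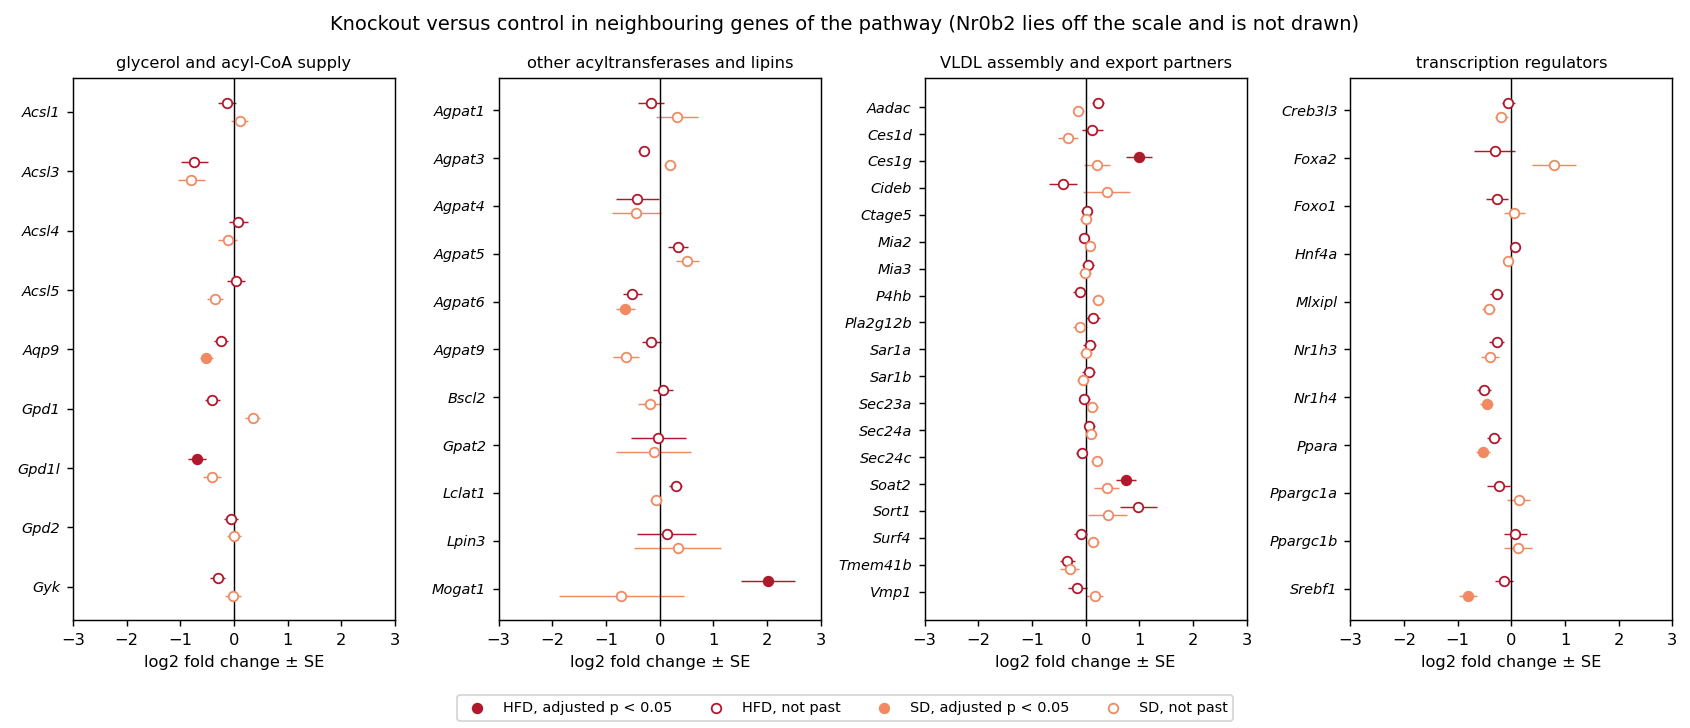
Log2 fold change with SE of knockout against control for genes of 4 lists around the pathway, on HFD and SD, filled where the adjusted p was under 0.05. Nr0b2 is off the scale and not drawn, Srebf1 lies at -0.81 on SD, and Mogat1 lies at 2.01 on HFD.

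Markers of other cell types were also looked at. Of 6 Kupffer cell and 5 endothelial markers, all tested, 0 passed a knockout comparison by edgeR or DESeq2. On SD 1 endothelial marker had an unadjusted p under 0.05 in edgeR. Of 4 lymphocyte markers 1 was tested and did not pass, and 0 of 5 pancreatic acinar markers had enough counts to be tested. Of 5 adipocyte markers, Adipoq, Retn and Lep had no count in any library, and Plin1 had 1 count over all 12 libraries, in an HFD knockout. The summed level, nearly all from Cfd, was 36.8 to 69.2 CPM in HFD knockouts against 0.343 to 3.09 CPM in HFD controls, and 0 to 11.7 CPM in SD knockouts against 0 to 0.402 CPM in SD controls. Cfd, the 1 tested marker of this list, rose on HFD (edgeR adjusted p = 2.04e-04) and averaged over diets (7.95e-04), where DESeq2 called it too, and did not pass on SD (0.140). Of 6 stellate cell and fibroblast markers 0 passed on either diet by edgeR (3 on HFD and 4 on SD had an unadjusted p under 0.05, and DESeq2 called Reln on SD) and 3 rose in the averaged comparison, with a summed level of 379 to 456 CPM in HFD knockouts against 256 to 387 CPM in HFD controls, and 438 to 512 CPM in SD knockouts against 332 to 392 CPM in SD controls. Of 5 cholangiocyte markers 3 were tested and 0 passed by edgeR or DESeq2 (0 on HFD and 1 on SD had an unadjusted p under 0.05), with sums of 88.4 to 99.6 CPM in HFD knockouts against 27.4 to 105 CPM in HFD controls, and 64.7 to 197 CPM in SD knockouts against 50.6 to 53.9 CPM in SD controls. The part of these cells in the levels of Agpat2, Tm6sf2 and Lpin1 was not tested. Without HFD control 1, the HFD log2 fold change was -1.54 for Agpat2 (adjusted p = 1.64e-04) and -1.03 for Tm6sf2 (adjusted p = 0.0162).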

How the data were processed

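Each library's table, as deposited by the authors, holds unnormalized read counts by gene symbol in whole numbers. The submitters' processing notes name TopHat2 2.1.0, HTSeq, DESeq2 1.14.1 and build mm9, and per the labels' protocols a Nugen Ovation kit turned total RNA into libraries. Neither the strand setting nor the handling of multiply mapping reads is stated in the sources, which leaves genes with overlapping neighbours uncertain. In R 4.3.3, counts were tested with edgeR 4.0.16 (quasi-likelihood test, TMM, filterByExpr with a minimum count of 10, 4 group means, 1 spread estimate for the 12 libraries, two-sided, Benjamini-Hochberg over 12015 genes). SEs were derived from the test statistic. The same steps were run on counts simulated from the spread of these data, with the same knockout effect on both diets. That run checks the steps only and does not bear on the calls in the real libraries. Because the labels do not state that libraries come from separate mice, p-values reflect the spread between libraries, which may be technical. Depth, given above by diet, limits the precision of the low genes, since an SD library gives 16 to 53 counts for Tm6sf2.

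The members and the lists were chosen with earlier results of these data known. All members are named, and of each list the genes that passed a knockout comparison and the 2 with the highest mean CPM. One list gene that this rule names is not reported here. Nearest patterns were taken among tested genes of at least 5 mean CPM, from log2(CPM + 0.5). Alternative settings were a DESeq2 1.42.0 test, RLE scaling, no filter, only the groups compared, thinning to 2371167 counts, the replicate number as a block, and each library left out. Without 1 HFD knockout a lone library remains in that group, and its variation is assumed to equal that of the other groups. Promoter windows are from RefSeq on GRCm38.p6.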

Additional observations from a re-analysis of the deposited data

Results flagged for a closer look

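Nr1h4, the bile acid receptor gene of the regulator list, had 195 CPM in HFD control 1, against 249 to 257 CPM in the other 3 HFD controls. The gap to the nearest of them was 0.866 of the range of the group, above Dixon's critical value for 4 samples at the 95% level. Of the 34 groups of 4 libraries looked at (the members and the named genes of the lists), 1 was beyond that value, and chance alone gives about 1 in 20.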

How the results depend on the processing

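Log2 fold changes below are knockout against control unless diets are named. The knockout calls of Agpat2, and the diet calls of Apob and Mttp, of Lpin1 in knockouts and of Dgat2 in controls, held under every alternative and with each library left out. For HFD, 518 genes passed with no filter and 127 with only the groups compared, and 1 member (Agpat2) passed with only the groups compared, with thinning or with the replicate block, against 325 genes and 2 members. The difference between diets gave 33 genes with DESeq2, 17 with no filter and 1 with the block, against 0. The averaged log2 fold change of Lpin1, which did not pass otherwise, passed with no filter (adjusted p = 0.00757), with the block (0.0377) and without SD control 1 (0.00469). Between a knockout and the control of its replicate number, deviations from the group mean correlated at 0.13 and 0.01 on HFD and -0.02 to 0.05 on SD. Of the knockouts, 1 of 2 on HFD and 2 of 3 on SD were most like the control of their own number. With so few libraries in a group, these values cannot decide whether replicate numbers pair libraries.

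Values near zero that did not pass changed sign under some settings. With the replicate block these were Gpam (-0.0855 on HFD, -0.0109 for the difference), Lpin1 (-0.266 on HFD), Lpin2 (-0.0608 for the difference, -0.0172 between diets in knockouts, 0.0436 in controls) and Tm6sf2 (-0.0149 between diets in knockouts). With thinning they were Dgat1 (-0.349 on HFD, -0.175 averaged, -0.348 for the difference), Gpam (0.0352 averaged) and Agpat2 (0.0822 for the difference). Dgat1 gave 0.0012 on SD with only the groups compared and -0.0016 averaged with no filter, and Tm6sf2 between diets in knockouts gave -0.0015 with DESeq2 and -0.0033 with RLE.

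With each library left out in turn, 85 to 602 genes and 1 to 2 members passed on HFD (602 without HFD control 1, 191 and 209 without controls 2 and 4, 85 and 203 without knockouts 1 and 2). On SD 220 to 655 genes and 1 to 3 members passed (331 and 229 without controls 2 and 3, 255 and 220 without knockouts 2 and 3). Averaged, 660 to 1222 passed (660 without SD control 3, 666 without HFD knockout 1), for the difference 0 to 4 (4 without SD control 1, 1 each without SD knockout 1 and HFD control 1), and between diets in knockouts 1978 to 3249 (1978 without HFD knockout 1). On HFD, log2 fold changes spanned -0.245 to 0.329 for Gpam, -0.475 to 0.390 for Lpin1, -0.414 to 0.573 for Lpin2 and -0.0390 to 0.0808 for Dgat1. On SD they spanned -0.183 to 0.0698 for Gpam, -0.128 to 0.206 for Lpin2, -0.0852 to 0.0973 for Dgat1 and -0.0073 to 0.120 for Dgat2. Averaged, the ranges were -0.158 to 0.130 for Gpam, -0.173 to 0.322 for Lpin2, -0.0254 to 0.0670 for Dgat1, -0.0436 to 0.0202 for Dgat2 and -0.0873 to 0.0158 for Mttp. For the difference they were -0.174 to 0.397 for Gpam, -0.311 to 0.229 for Agpat2, -0.482 to 0.502 for Lpin2, -0.0607 to 0.121 for Dgat1 and -0.280 to 0.154 for Tm6sf2. Between diets in knockouts they were -0.117 to 0.448 for Gpam, -0.512 to 0.468 for Lpin2 and -0.205 to 0.224 for Tm6sf2, and in controls -0.0588 to 0.159 for Gpam, -0.843 to 0.0676 for Lpin1, -0.174 to 0.110 for Lpin2 and -0.0409 to 0.186 for Tm6sf2. The cause was not tested.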

Other observations

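Per kilobase of annotated exon, Lpin1 and its paralogue Lpin2 stood in a different order in SD knockouts than in the other groups. Lpin1 averaged 95.2 ± 25.9 CPM per kilobase and Lpin2 72.8 ± 15.9 in SD knockouts, and Lpin1 averaged 34.6 ± 21.7 and Lpin2 69.4 ± 13.7 in SD controls (SD, n = 3 each). In HFD knockouts Lpin1 averaged 23.3 ± 9.60 and Lpin2 75.4 ± 35.2 (SD, n = 2), and in HFD controls Lpin1 averaged 23.0 ± 6.59 and Lpin2 67.6 ± 5.26 (SD, n = 4). Whether the 2 genes responded differently was not tested.

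Among the supply genes, the diet comparison gave the acyl-CoA synthetase gene Acsl1 as higher in HFD libraries, with a log2 fold change of 0.80 in knockouts (edgeR adjusted p = 0.00252) and 1.04 in controls (edgeR adjusted p = 6.9e-05). Gpd1 was higher in HFD controls (0.43, edgeR adjusted p = 0.0144) and gave -0.32 in knockouts (edgeR adjusted p = 0.123).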
